A study of Mus musculus with 44 samples.

Results

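The genes described here encode 3 families of drug- and hormone-conjugating enzymes: the UDP-glucuronosyltransferases (UGT), the cytosolic sulfotransferases (SULT) and the glutathione transferases of the alpha, kappa, mu, omega, pi and theta classes (GST). They were chosen by name alone, as every gene of the organoid RNA-seq count table whose symbol starts with Ugt1, Ugt2 or Ugt3, with Sult and a digit, or with Gst, one of those class letters and a digit. Of 19733 genes in the table, 58 met this rule: 8 of the Ugt1a locus, 12 of the UGT2 and UGT3 subfamilies, 18 SULT and 20 GST genes.

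UGT enzymes of the Ugt1a locus and of the UGT2 subfamily sit in the endoplasmic reticulum. They join glucuronic acid from UDP-glucuronic acid to bilirubin, steroids, phenols and drugs. SULT enzymes move sulfate from the donor PAPS (3′-phosphoadenosine-5′-phosphosulfate) to phenols, catecholamines, thyroid hormone and sterols, and GST enzymes join glutathione to electrophiles such as epoxides, quinones and products of lipid oxidation. Conjugates leave the cell through ATP-driven pumps, and in the small intestine this pathway acts on absorbed compounds in the epithelium before they reach the blood.

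The 20 RNA-seq libraries, all from C57BL/6 mouse organoids (epithelium grown as spheres in a gel), belong to 2 experiments that were analysed apart. In the first, gastric organoid lines carried a lentivirus for the intestinal transcription factor CDX2 (3 libraries), for the intestinal and hepatic factor HNF4A (3) or for the neutral product GFP (3), and 2 libraries came from small intestine organoids. In the second, stomach antrum organoids that all overexpressed HNF4A differed in a CRISPR-Cas9 deletion, made in the germline, of an enhancer 3′ of Cdx2: 3 libraries had no deleted allele (wild type), 3 were heterozygous and 3 homozygous. The study asked what CDX2 and HNF4A do to gastric cells and what this enhancer contributes; these comparisons are described here for the conjugating enzymes only.

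Libraries of the lines held 6180498 to 11007809 counted reads, and those of the enhancer experiment held 8173640 to 11465309. Levels are given as CPM, a count divided by the library's TMM-scaled size. Cdx2 was measured at 3.95, 7.44 and 3.19 CPM with GFP, at 199.9, 288 and 62.0 CPM with CDX2, at 50.7, 29.1 and 22.6 CPM with HNF4A and at 282 and 272 CPM in small intestine organoids. Hnf4a stood at 158.3, 131.8 and 95.68 CPM with GFP and at 502.4, 398.7 and 289.1 CPM with HNF4A. With CDX2 it stood at 440.5, 197 and 186.2 CPM, and in small intestine organoids at 717 and 885.2 CPM. Reads of the transgenes and of the cells' own Cdx2 and Hnf4a cannot be told apart in the table. Summed CPM of 9 gastric markers ran from 2833 to 8065 with GFP, from 265 to 1768 with CDX2, from 1815 to 5607 with HNF4A and from 1.397 to 11.52 in small intestine organoids, where Muc5ac and Sox2 had 0 reads. Most of the GFP sums was Muc6, at 2004, 3772 and 6923 CPM. Against GFP, all 9 gastric markers had log2 fold changes below 0 with CDX2. With HNF4A, 5 lay above and 4 below 0 (median 0.0965), and edgeR called 0 of the 9 with either factor. Summed CPM of 10 enterocyte markers ran from 314.9 to 392.5 with GFP, where Cdx1, Apoa4 and Sis had 0 reads. The sums ran from 580.6 to 1485 with CDX2, from 637.1 to 926.7 with HNF4A and from 1493 to 1852 in small intestine organoids. Nearly all of the GFP sums was Vil1, at 311, 387 and 365.8 CPM. Summed CPM of 6 goblet cell markers ran from 13.13 to 38.34 with GFP, where Zg16 had 0 reads. These sums ran from 117.2 to 370.8 with CDX2, from 45.75 to 91.05 with HNF4A and from 231.6 to 1230 in small intestine organoids. Against GFP, edgeR called 2 of 9 tested enterocyte markers and 2 of 6 goblet markers higher with CDX2 (0.409% of all genes were called). With HNF4A it called 1 of 9 and 0 of 6 higher (0.142% of all genes). The part of these marker differences in the results on the conjugating enzymes was not tested. In these bulk samples fewer cells of a type and less RNA per cell cannot be told apart.

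Promoter sequences are shown for the 6 members on which the results below turn: 3 of the Ugt1a first exons, a pair of mu-class GST genes that differed in opposite directions, and a sulfotransferase. Each is the 150 bases before the RefSeq start on build GRCm38.p6, 5′ to 3′ on the gene's strand. The windows are Ugt1a7c at chr1:88094851-88095000 (+), Ugt1a6a at chr1:88134659-88134808 (+), Ugt1a1 at chr1:88211809-88211958 (+), Gstm3 at chr3:107969175-107969324 (-), Gstm5 at chr3:107895704-107895853 (+) and Sult1d1 at chr5:87569007-87569156 (-). Capitals mark matches, on either strand, to 6 motifs that were searched: the CDX motif as TTTATG and as TTTATT, the HNF1 site core GTTAAT, the HNF4A core CAAAGTC, the antioxidant response element core TGACNNNGC and the AHR core GCGTG.
Ugt1a7c: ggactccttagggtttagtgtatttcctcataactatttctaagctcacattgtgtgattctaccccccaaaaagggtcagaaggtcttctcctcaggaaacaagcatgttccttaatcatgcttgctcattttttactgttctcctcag
Ugt1a6a: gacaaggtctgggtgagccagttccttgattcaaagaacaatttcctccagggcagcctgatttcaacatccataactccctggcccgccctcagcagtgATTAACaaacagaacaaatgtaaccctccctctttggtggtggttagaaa
Ugt1a1: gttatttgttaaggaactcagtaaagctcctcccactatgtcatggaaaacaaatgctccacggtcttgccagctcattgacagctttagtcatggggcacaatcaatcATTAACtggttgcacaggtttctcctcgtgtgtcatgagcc
Gstm3: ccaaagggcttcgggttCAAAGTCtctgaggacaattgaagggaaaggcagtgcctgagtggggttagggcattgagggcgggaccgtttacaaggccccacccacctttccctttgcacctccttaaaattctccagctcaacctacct
Gstm5: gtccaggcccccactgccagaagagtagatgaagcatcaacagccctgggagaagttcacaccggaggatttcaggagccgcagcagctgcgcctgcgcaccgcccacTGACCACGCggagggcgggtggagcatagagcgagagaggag
Sult1d1: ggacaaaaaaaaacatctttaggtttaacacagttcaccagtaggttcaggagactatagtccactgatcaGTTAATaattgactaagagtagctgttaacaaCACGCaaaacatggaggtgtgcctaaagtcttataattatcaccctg

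The Ugt1a7c window held none of the 6 motifs. The Ugt1a1 window held the HNF1 site core on the opposite strand 41 to 36 bases before the start, and the Ugt1a6a window held it 50 to 45 bases before the start. The Sult1d1 window held it 79 to 74 bases before the start, together with the AHR core 47 to 43 bases before it. The HNF4A core lay 133 to 127 bases before the Gstm3 start. In the Gstm5 window the antioxidant element core, 42 to 34 bases before the start, overlapped the AHR core at 38 to 34. Over all 32851 promoters of the same length, 6.33% held TTTATG, 10.3% TTTATT, 3.71% the HNF1 site core, 2.25% the HNF4A core, 6.8% the antioxidant element core and 20.5% the AHR core. Of the 59 promoters listed for members, 2 held TTTATG, 6 TTTATT and 12 the HNF1 site core. Of the same 59, 1 held the HNF4A core, 3 the antioxidant element core and 7 the AHR core. The 12 promoters with the HNF1 site core belonged to Gsta3, Sult1d1, Sult2a3 to Sult2a6, Ugt1a1, Ugt1a6a, Ugt1a9, Ugt1a10, Ugt2a3 and Ugt3a1. Sult2a3 to Sult2a6 and Ugt1a10 had 0 reads in all 20 libraries, and Ugt1a9 and Ugt3a1 were not tested in either experiment. The windows of Ugt1a7c, Gstm3 and Gstm5, called in the tests below, did not hold it. An excess of this motif among members was not tested. A match is a string of letters in a window and not a measured binding site.

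Many members lie in tandem clusters. All 8 Ugt1a genes lie on chromosome 1 between bases 88055411 and 88220002 of GRCm38.p6, and 7 of them end at the same base, since alternative first exons are spliced to common last exons. On chromosome 5, 10 Ugt2 genes lie between 86889770 and 87490871, and on chromosome 3, 7 mu-class GST genes lie between 107895854 and 108045179. How the authors' counting assigned reads of the shared Ugt1a exons, or of near-identical neighbours such as Gsta1 and Gsta2 or Gstp1 and Gstp2, could not be read from the labels or the table. The split of reads within these groups is therefore uncertain.

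Of the 58 genes, 11 had 0 reads in all 20 libraries: Ugt1a10, Ugt2a1, Ugt2a2, Ugt2b37, Sult1c1, Sult1e1 and Sult2a3 to Sult2a7. A filter on low counts left 34 members for testing in the lines and 33 in the enhancer experiment. The other members stayed below 1.756 CPM in every library of the lines except Ugt2a3, which reached that level in small intestine library 2, and below 3.818 CPM in the enhancer experiment except Ugt1a6b, which reached that level in wild-type library 3. All 58 genes together took 0.2117% to 0.79% of reads in the lines and 0.3911% to 0.9128% in the enhancer experiment.

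**Figure D1:**
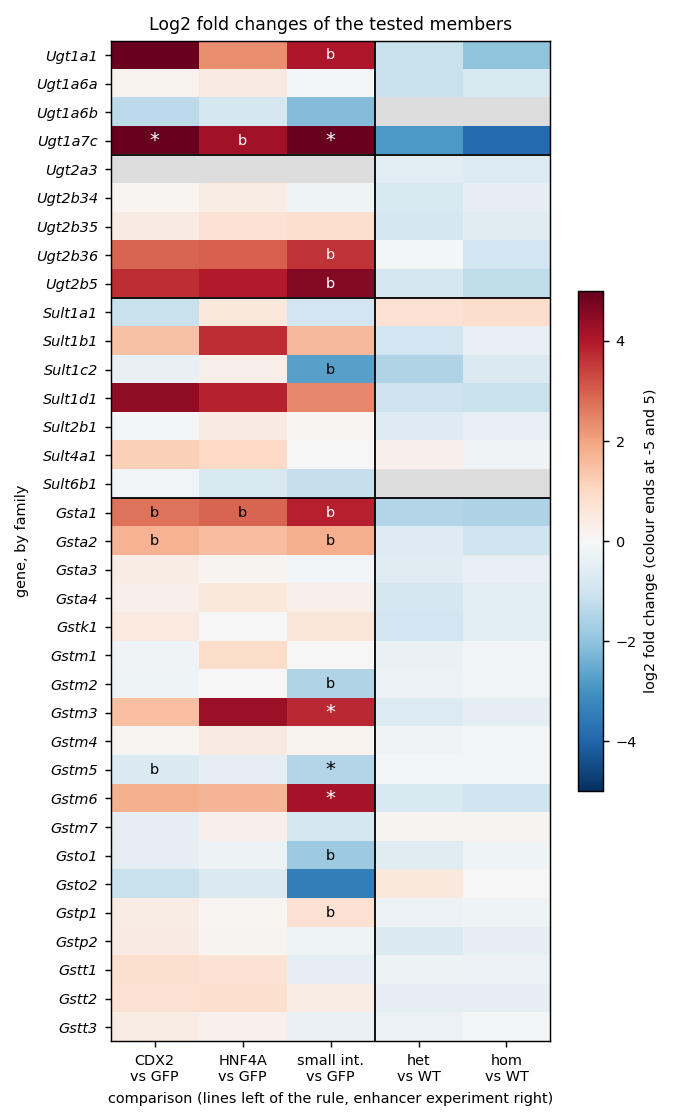
Fitted log2 fold change of each tested member (rows, by family) in 5 comparisons (columns), on a colour scale from lower to higher. An asterisk marks an adjusted p under 0.05 in edgeR, the letter b a call made only with line number as a block, and grey a gene that was not tested. Ugt1a7c carries the asterisk in the CDX2 and small intestine columns, and the enhancer columns are almost all on the lower side with no call.

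Against GFP, a single conjugating enzyme gene, Ugt1a7c, rose past the test in CDX2 lines, and small intestine organoids differed from GFP lines in 4: Ugt1a7c, Gstm6 and Gstm3 were higher and Gstm5 was lower. With CDX2, edgeR called 1 of 34 members (0.409% of all 12720 genes were called), edgeR with line number as a block called 4 (5.74% of all genes) and DESeq2 called 3 (3.88%). The block was fitted because gastric libraries with the same line number deviated together. Small intestine libraries did not deviate with them. In their comparisons the block takes the spread between gastric lines out of the error without pairing the libraries. Blocked p-values for small intestine organoids may therefore be too small. In 8 members the CDX2 and GFP libraries did not overlap, against 16.0% of all genes. The median log2 fold change was 0.36 over the 34 members and 0.00289 over all genes, and 23 members lay above 0.

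With HNF4A, edgeR called 0 of 34 members (0.142% of all genes), while 9 members and 733 of all 12720 genes had an unadjusted p under 0.05. The blocked fit called 2 (1.19% of all genes) and DESeq2 called 4 (1.74%). In 6 members the HNF4A and GFP libraries did not overlap, against 11.6% of all genes. The median was 0.48 over the members and 2.71e-05 over all genes, and 28 members lay above 0. The CDX2, HNF4A and small intestine comparisons all use the same 3 GFP libraries, so they are not independent of each other.

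Among the Ugt1a genes, Ugt1a7c, which makes a glucuronosyltransferase for phenols, was nearly silent in GFP lines and well expressed with either factor. Its level was 0.747, 0.425 and 0.490 CPM with GFP in lines 1 to 3, which rests on 7, 4 and 4 reads. It was 87.5, 28.2 and 20.8 CPM with CDX2, 19.6, 5.10 and 6.53 CPM with HNF4A, and 58.7 and 115 CPM in small intestine organoids. Every other library lay above all 3 GFP libraries, and every CDX2 library lay above every HNF4A library. Ugt1a7c rose with CDX2 by 6.32 ± 0.84 (log2 fold change ± SE; 80.07-fold, edgeR adjusted p = 0.0158; 0.000573 with the line block; 5.71e-15 in DESeq2). The edgeR call was lost without GFP library 1 (adjusted p = 0.109), 2 (0.0872) or 3 (0.0668), with log2 fold changes of 6.60, 6.16 and 6.25. Without CDX2 library 1, the highest, the log2 fold change was 5.43 (edgeR adjusted p = 0.0147).

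With HNF4A the log2 fold change of Ugt1a7c against GFP was 4.20 ± 0.81, which missed the edgeR threshold (adjusted p = 0.101) and passed it with the line block (4.14, adjusted p = 0.00613), in DESeq2 (3.73e-06) and without CDX2 library 1 (0.0359). In the direct comparison of CDX2 with HNF4A the log2 difference was 2.13 ± 0.64, again past the threshold only with the block (2.10, adjusted p = 0.036; edgeR without it 0.52; DESeq2 0.0666). Without HNF4A library 1 the log2 fold change against GFP was 3.35 (edgeR adjusted p = 0.308), and without CDX2 library 1 the difference between CDX2 and HNF4A was 1.23. The mean level was 45.5 ± 36.5 CPM (SD, n = 3) with CDX2, 10.4 ± 8.01 CPM (SD, n = 3) with HNF4A and 0.554 ± 0.170 CPM (SD, n = 3) with GFP.

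Ugt1a1, the bilirubin glucuronosyltransferase, was low throughout and uneven with CDX2. It was measured at 0.427, 0.851 and 0 CPM with GFP, at 35.1, 1.69 and 4.42 CPM with CDX2, at 4.88, 0.679 and 1.09 CPM with HNF4A and at 7.36 and 7.57 CPM in small intestine organoids. The CDX2 libraries lay above the GFP libraries, and CDX2 library 1 stood far above the other 2. The log2 fold change with CDX2 was 4.94 ± 1.36 (edgeR adjusted p = 0.175; 0.0501 with the line block; DESeq2 0.00157), so only DESeq2 called it. Without CDX2 library 1 it was 2.76 (edgeR adjusted p = 0.658). Ugt1a6a, which conjugates planar phenols, showed no such pattern: its level was 28.4, 12.7 and 5.15 CPM with GFP, 23.7, 22.8 and 5.52 CPM with CDX2 and 42.9, 12.6 and 6.80 CPM with HNF4A, and the groups overlapped. Genes of a single locus thus differed in their values, Ugt1a7c being called and Ugt1a6a lying within the spread of the lines. Counts were per gene, with an unknown split of reads from shared exons. A difference between the genes' responses was not tested.

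**Figure D2:**
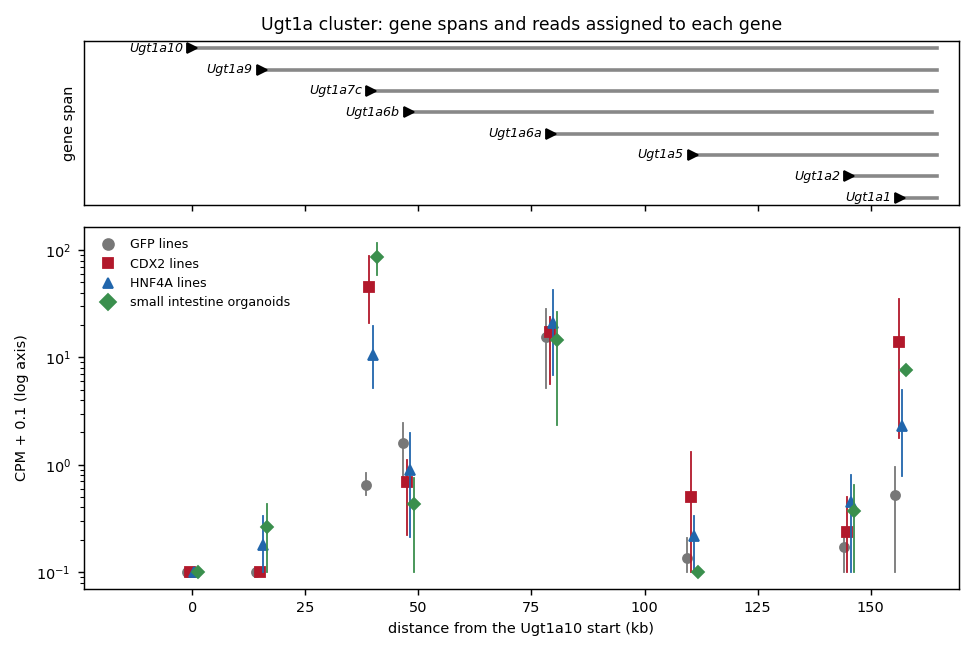
The Ugt1a locus in the lines: gene spans against distance in kilobases from the Ugt1a10 start (top) and mean level in CPM plus 0.1 on a log scale for each group, with a bar from the lowest to the highest library (bottom). GFP stands lowest at Ugt1a7c, at 0.554 CPM on average, and all groups overlap at Ugt1a6a.

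The UGT2 genes, which act on steroids, fatty acids and drugs, gave 4 testable members in the lines and 5 in the enhancer experiment. EdgeR called none of them in any comparison. The UGT3 genes, Ugt3a1 and Ugt3a2, were not tested in either experiment. Ugt2b34 was measured at 673, 833 and 171 CPM with GFP, at 636, 486 and 681 CPM with CDX2, at 996, 858 and 308 CPM with HNF4A and at 498 and 458 CPM in small intestine organoids. Ugt2b35, its neighbour, ran from 23.8 to 105 CPM with GFP, from 47.3 to 103 CPM with CDX2, from 66.6 to 141 CPM with HNF4A and from 96.0 to 127 CPM in small intestine organoids. For both genes these ranges overlapped in the comparisons with GFP. Ugt2b5 and Ugt2b36, named after their values were seen, had 1 and 2 reads in all GFP libraries together. Their pooled ratios to GFP, with a 95% interval for counting error only, were 17.5 (2.73 to 736) and 9.32 (2.21 to 83.2) with CDX2, 21.7 (3.48 to 901) and 9.24 (2.19 to 82.4) with HNF4A, and 31.2 (5.07 to 1290) and 13.6 (3.3 to 120) in small intestine organoids. The reads behind them were few, with no library of the lines above 2.09 CPM for Ugt2b5 or 1.76 CPM for Ugt2b36.

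Among the sulfotransferases, Sult1d1, a catecholamine sulfotransferase, had non-overlapping higher levels with either factor. It was measured at 3.63, 10.8 and 1.47 CPM with GFP, at 282, 45.7 and 21.6 CPM with CDX2 and at 122, 76.0 and 34.7 CPM with HNF4A. In small intestine organoids it stood at 6.80 and 50.3 CPM, overlapping the GFP lines. The log2 fold change was 4.44 ± 1.19 with CDX2 (edgeR adjusted p = 0.165; DESeq2 0.00517) and 3.85 ± 1.16 with HNF4A (edgeR adjusted p = 0.41; DESeq2 0.0414); with the line block the adjusted p was 0.065 and 0.14. Only DESeq2 therefore called Sult1d1. Without CDX2 library 1, the highest, the log2 fold change with CDX2 was 2.65 (edgeR adjusted p = 0.537).

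Sult1b1, which sulfates thyroid hormone and small phenols, stood highest in the HNF4A lines, at 70.2, 42.8 and 20.006 CPM. It stood at 4.16, 4.57 and 1.47 CPM with GFP, at 21.7, 3.26 and 3.31 CPM with CDX2 and at 2.51 and 18.9 CPM in small intestine organoids. Against GFP the log2 fold change with HNF4A was 3.69 ± 0.98 (edgeR adjusted p = 0.284; 0.087 with the block; DESeq2 0.00189). The direct difference between CDX2 and HNF4A was -2.21 ± 0.91 (edgeR adjusted p = 0.871; DESeq2 0.333), with CDX2 library 1 inside the range of the HNF4A libraries.

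Sult1c2, a phenol sulfotransferase, was low in small intestine organoids, at 1.30 and 22.4 CPM, against 104, 99.0 and 30.5 CPM with GFP. It ran from 47.3 to 83.9 CPM with CDX2 and from 45.5 to 161 CPM with HNF4A, and both small intestine libraries lay below all gastric ones. Against GFP the log2 fold change was -2.73 ± 1.00 (edgeR adjusted p = 0.0679; 0.0436 with the block; DESeq2 0.00707). The 2 small intestine libraries were far apart, and the log2 fold change was -1.80 without library 1 (edgeR adjusted p = 0.235) and -5.88 without library 2 (0.0117). Sult1a1, the main phenol sulfotransferase, was scarce: 1.81, 1.59 and 1.47 CPM with GFP, 0.603, 0.845 and 0.789 CPM with CDX2, and 1.51, 2.38 and 3.13 CPM with HNF4A. Its CDX2 libraries lay below all GFP and HNF4A libraries, and its difference between CDX2 and HNF4A was -1.63 ± 0.58 (edgeR adjusted p = 0.683). Of the remaining tested SULT genes, Sult2b1, a cholesterol sulfotransferase, ran from 6.78 to 23.9 CPM over the lines, Sult4a1 from 0.953 to 9.74 CPM and Sult6b1 from 0.0931 to 1.58 CPM, with overlapping groups in the comparisons with GFP.

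**Figure D3:**
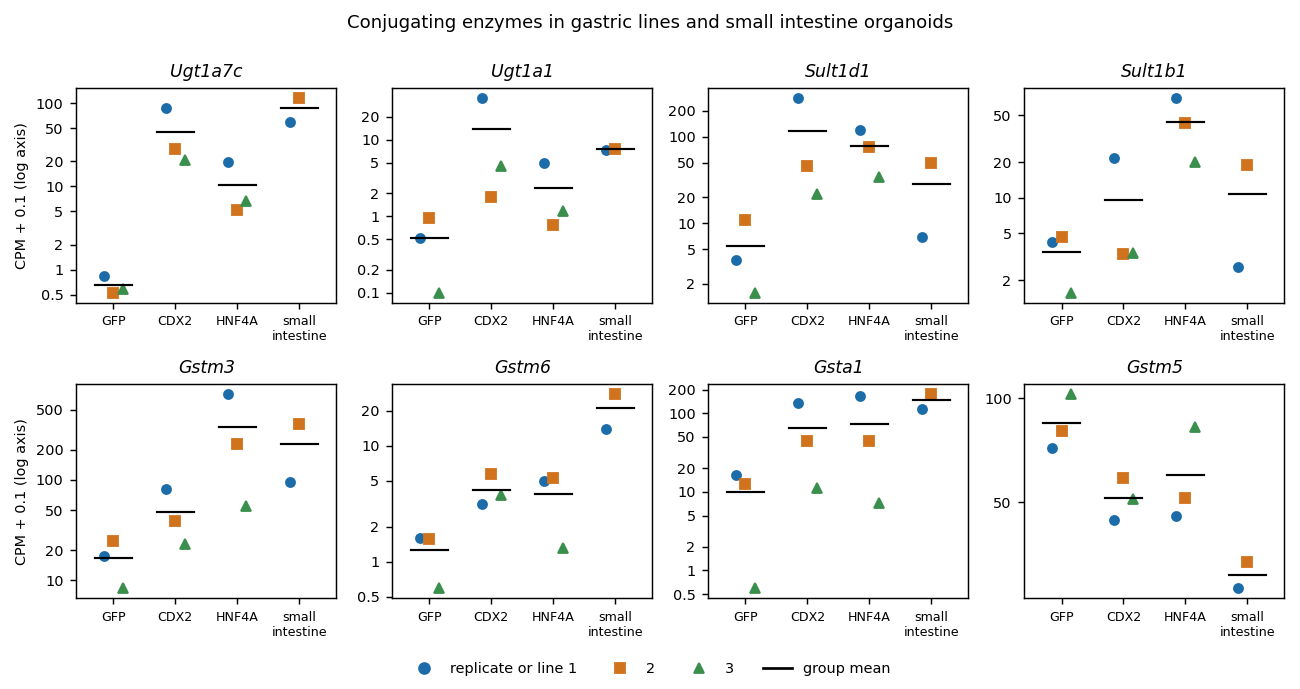
Level in CPM plus 0.1, on a log axis, of 8 members in the libraries of the lines, by group; the marker shape gives the line number and the bar the group mean. Ugt1a7c separates GFP from all other groups, at 0.425 to 0.747 CPM against 5.10 CPM or more, and Gstm5 is highest with GFP.

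The alpha-class GST genes, whose enzymes reduce lipid hydroperoxides and conjugate aldehydes, differed strongly between lines. Gsta1, named after its values were seen, was measured at 16.1, 12.5 and 0.490 CPM with GFP in lines 1 to 3, at 137, 43.7 and 11.04 CPM with CDX2 and at 166, 44.8 and 7.21 CPM with HNF4A. Line 3 was lowest in each of the 3 gastric groups, and within each line number Gsta1 was higher with either factor than with GFP. Accordingly the fit without a block made no call (2.71 ± 1.25 with CDX2, edgeR adjusted p = 0.46; 2.89 ± 1.26 with HNF4A, 0.832). With the line block Gsta1 rose by 2.72 with CDX2 (edgeR adjusted p = 0.0137) and by 2.68 with HNF4A (0.0296). DESeq2 without a block called Gsta1 in neither, with an adjusted p of 0.546 for HNF4A. In small intestine organoids Gsta1 stood at 113.6 and 176.7 CPM, above all GFP libraries. Against GFP it was called there with the block (log2 fold change 4.58, edgeR adjusted p = 0.00035) and in DESeq2 (3.89, 0.0262), and not by edgeR without the block. The blocked p-value leaves out the spread between the GFP lines, although this comparison is not paired.

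Gsta2, the near-identical neighbour of Gsta1 and also named after its values were seen, stood at 9.92, 5.10 and 0.490 CPM with GFP and at 32.4, 15.2 and 4.58 CPM with CDX2, and was called with the block for CDX2 (1.95, edgeR adjusted p = 0.0373). Muc6, the gland mucin of the stomach, also differed by line, at 2004, 3772 and 6923 CPM with GFP, 10.3, 90.4 and 886 CPM with CDX2 and 228, 1843 and 4272 CPM with HNF4A. It was highest in line 3 of each group, where Gsta1 was lowest; the part of such differences between lines in the Gsta1 result was not tested beyond the block. Gsta3, which detoxifies aflatoxin epoxide in the mouse, ran from 208 to 419.7 CPM with GFP, from 341 to 571 CPM with CDX2, from 226 to 455 CPM with HNF4A and from 238 to 356 CPM in small intestine organoids. Gsta4, the transferase for 4-hydroxynonenal, ran from 283 to 691 CPM with GFP and from 317 to 809.8 CPM with CDX2. Neither was called in any comparison by edgeR, the blocked fit or DESeq2.

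The mu-class GST genes, which conjugate epoxides and quinones and lie side by side on chromosome 3, were called in both directions in small intestine organoids. Gstm3 was measured at 17.3, 24.6 and 8.21 CPM with GFP, at 80.7, 38.7 and 22.9 CPM with CDX2, at 721, 227 and 55.4 CPM with HNF4A and at 94.5 and 358 CPM in small intestine organoids. The HNF4A and small intestine libraries lay above all GFP libraries, while the CDX2 range overlapped GFP by the margin between CDX2 line 3 and GFP line 2. With HNF4A the log2 fold change was 4.32 ± 0.96 (edgeR adjusted p = 0.168; 0.0505 with the block; DESeq2 8.26e-06), and 3.08 without HNF4A library 1 (edgeR adjusted p = 0.5). The direct difference between CDX2 and HNF4A was -2.81 ± 0.90, lower with CDX2 (edgeR adjusted p = 0.57; 0.172 with the block; DESeq2 0.0304), and -1.57 without HNF4A library 1.

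In small intestine organoids Gstm3 was higher than with GFP by 3.76 ± 0.98 (edgeR adjusted p = 0.0207). The call was lost without GFP library 1 (adjusted p = 0.0551), GFP library 3 (0.0632) or small intestine library 2 (0.121), when the log2 fold change was 2.50. Gstm6 was measured at 1.49, 1.49 and 0.490 CPM with GFP, at 3.02, 5.55 and 3.63 CPM with CDX2, at 4.88, 5.21 and 1.22 CPM with HNF4A and at 13.8 and 27.9 CPM in small intestine organoids. Both small intestine libraries lay above all gastric lines. Gstm6 was higher there than with GFP by 4.14 ± 0.68 (edgeR adjusted p = 0.00372), a call that held in all 11 fits with 1 library left out. With CDX2 the log2 fold change of Gstm6 against GFP was 1.79 ± 0.62 (edgeR adjusted p = 0.294).

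Gstm5 went the other way. It was measured at 71.5, 80.2 and 103 CPM with GFP, at 44.4, 58.6 and 51.0 CPM with CDX2, at 45.7, 51.5 and 82.5 CPM with HNF4A and at 28.1 and 33.5 CPM in small intestine organoids. The CDX2 and small intestine libraries lay below all GFP libraries. In small intestine organoids Gstm5 was lower than with GFP by 1.46 on the log2 scale (log2 fold change -1.46 ± 0.28, edgeR adjusted p = 0.00654), a call lost without small intestine library 1 (0.0707). With CDX2 the log2 fold change was -0.72 ± 0.24 (edgeR adjusted p = 0.268), called with the line block (-0.70, adjusted p = 0.0465). Gstm1 ran from 235 to 511 CPM with GFP and from 320.2 to 1178 CPM with HNF4A, and Gstm2 from 84.2 to 143 CPM with GFP against 17.2 and 67.1 CPM in small intestine organoids. Gstm2 against GFP had a log2 fold change of -1.50 ± 0.52 in small intestine organoids (edgeR adjusted p = 0.056; 0.0499 with the block; DESeq2 0.0118), with -0.82 without small intestine library 1 (edgeR adjusted p = 0.271) and -2.78 without library 2 (0.00797).

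In the remaining GST classes edgeR made no call in any comparison. Gsto1, an omega-class enzyme that reduces dehydroascorbate, was measured at 2219, 1303 and 486 CPM with GFP, at 1064, 1094 and 779 CPM with CDX2, at 1765, 1199.6 and 438 CPM with HNF4A and at 236 and 523 CPM in small intestine organoids. The GFP libraries overlapped those of every other group, while both small intestine libraries lay below all CDX2 libraries (-1.42 with the block, edgeR adjusted p = 0.0446). Gsto1 in small intestine organoids against GFP had a log2 fold change of -1.82 ± 0.70 (edgeR adjusted p = 0.0794; 0.0213 with the block; DESeq2 0.0138), of -1.35 without small intestine library 1 (edgeR adjusted p = 0.381) and of -2.22 without GFP library 3 (0.0399). Gstp1, of the pi class that guards epithelia against electrophiles, stood at 469, 336 and 152 CPM with GFP, 503, 352 and 375 CPM with CDX2, 536, 320.0 and 156 CPM with HNF4A and 534 and 550.5 CPM in small intestine organoids. Of the theta class, Gstt1 was higher in all CDX2 libraries (63.6, 45.6 and 51.3 CPM) and all HNF4A libraries (63.0, 45.4 and 44.5 CPM) than in GFP (36.1, 37.4 and 18.9 CPM). Its log2 fold change with CDX2 was 0.80 ± 0.35 (edgeR adjusted p = 0.434). Gstt3 ran from 65.7 to 92.9 CPM with GFP, from 83.9 to 103 CPM with CDX2, from 74.3 to 96.0 CPM with HNF4A and from 51.6 to 67.2 CPM in small intestine organoids, with overlap in each comparison with GFP. In small intestine organoids Gstt1 stood at 12.9 and 31.7 CPM, below all CDX2 libraries. Its log2 difference from CDX2 lines was -1.26 with the block (edgeR adjusted p = 0.0358, DESeq2 0.0186). Without small intestine library 1 and without the block it was -0.75 (edgeR adjusted p = 0.459). Gstt3 differed from CDX2 lines by -0.70 with the block (edgeR adjusted p = 0.0128, DESeq2 0.0179).

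The direct comparison of CDX2 with HNF4A gave 0 calls among 34 members in edgeR (0.0236% of all genes), with 5 members and 659 of all 12720 genes at an unadjusted p under 0.05. The blocked fit called 1, Ugt1a7c (0.723% of all genes), and DESeq2 called 1, Gstm3 (1.09%). The CDX2 and HNF4A libraries did not overlap for 2 members, Ugt1a7c and Sult1a1, against 8.32% of all genes. Of the 34 members 13 lay above 0 and 21 below, with a median log2 difference of -0.22.

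In small intestine organoids, 4 of 34 members were called against GFP by edgeR, 3 higher and 1 lower, where 27.1% of all genes were called. The blocked fit called 13, 9 higher and 4 lower (47.3% of all genes), and DESeq2 called 11 (35.3%). Blocked counts in all comparisons with small intestine organoids rest on p-values that may be too small, since these libraries are not paired by line. In 13 members the libraries did not overlap, against 59.3% of all genes. The median log2 fold change was 0.05, with 17 members above and 17 below 0. None of these member shares exceeded the share over all genes. Ugt1a7c was higher by 7.25 ± 0.88 (edgeR adjusted p = 0.00106), and the call held in all 11 fits with 1 library left out.

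Against CDX2 lines, edgeR called 1 of 34 members in small intestine organoids (11.3% of all genes), the blocked fit 9 (31.6%) and DESeq2 5 (21.0%), and 11 did not overlap (47.8% of all genes). The called gene was Gstm6, higher by 2.35 ± 0.63 (edgeR adjusted p = 0.0426; 0.00929 with the block), a call lost in 9 of 11 fits with 1 library left out, with a log2 difference between 1.76 and 2.78. Ugt1a7c overlapped between small intestine organoids and CDX2 lines and differed by 0.93 ± 0.66 (edgeR adjusted p = 0.372; 0.0169 with the block). Against HNF4A lines, edgeR called 3 of 34 members (12.5% of all genes), the blocked fit 9 (33.8%) and DESeq2 6 (21.9%), and 11 did not overlap (49.9% of all genes). These were Ugt1a7c, higher by 3.06 ± 0.69 (edgeR adjusted p = 0.0246), Gstm6, higher by 2.45 ± 0.64 (0.0358), and Gstm5, at -0.96 ± 0.28 (0.0492). With 1 library left out the calls were lost in 4, 6 and 9 of 11 fits.

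Partner genes of the pathway were followed in 8 lists. With CDX2, edgeR called 0 of 5 genes of UDP-glucuronic acid supply, 0 of 8 of sulfate donor supply, 0 of 13 of glutathione supply and recycling, 0 of 10 other glutathione transferases, 0 of 9 export pumps, 0 of 17 targets of the stress factor NRF2, 0 of 13 deconjugating and other conjugating enzymes, and 1 of 21 regulators, Cdx2 itself. With HNF4A it called 0 in all 8 lists. The regulators there include Hnf4a itself, which had 289.1 CPM or more in the HNF4A lines and at most 158.3 CPM with GFP. The absence of a call in this comparison therefore does not show that a gene was unchanged. With the line block, which called 5.74% of all genes with CDX2, 5 glutathione genes, 1 pump and 1 deconjugating enzyme were higher, while regulators had 3 higher and 1 lower and NRF2 targets 2 higher and 1 lower. With HNF4A, where it called 1.19% of all genes, 2 glutathione genes, 1 pump, 3 regulators and 2 deconjugating or other conjugating enzymes were higher and 1 NRF2 target was lower. The blocked fit called 0 in the other 3 lists in both comparisons. The pump was Abcb1a in both, a multidrug pump, at 3.84, 2.13 and 1.10 CPM with GFP, 155.9, 24.3 and 26.2 CPM with CDX2 and 54.1, 17.9 and 7.21 CPM with HNF4A. Its blocked log2 fold change was 4.61 with CDX2 (edgeR adjusted p = 0.00159) and 3.33 with HNF4A (0.0103). Nr1i2, the xenobiotic receptor PXR, named after its values were seen, stood at 6.30, 12.3 and 7.60 CPM with GFP and at 38.2, 43.0 and 30.4 CPM with HNF4A, and was higher with the block by 2.08 (edgeR adjusted p = 0.0409). With CDX2 Nr1i2 stood at 26.85, 12.55 and 19.25 CPM, also above all GFP libraries, and in small intestine organoids at 33.9 and 57.2 CPM.

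In small intestine organoids edgeR called genes in all 8 lists against GFP. Of the pumps, 3 of 9 were higher: Abcc2, which exports glucuronides and glutathione conjugates, stood at 260.3 and 185 CPM against 0.320, 0 and 0.245 CPM with GFP (10.12 ± 1.74, edgeR adjusted p = 0.00434), and Abcb1a at 127.7 and 207.8 CPM (6.13 ± 1.08, 0.00474). Of the glutathione genes, 3 of 13 were higher, among them Ggt6, of the gamma-glutamyltransferase family (2.13 ± 0.55, 0.0191), and the leucine aminopeptidase Lap3 (1.17 ± 0.22, 0.00563). In the sulfate list 1 of 8 was higher, Bpnt1, which degrades the spent sulfate donor (1.10 ± 0.18, 0.00344). In the glucuronic acid list Uxs1, which consumes UDP-glucuronic acid, was higher (0.57 ± 0.17, 0.0351) and the nucleotide sugar transporter Slc35d2 lower (-0.88 ± 0.29, 0.0489). Among other glutathione transferases 2 of 10 were higher, including Gstcd (0.85 ± 0.23, 0.024), and 1 was lower, the prostaglandin E synthase Ptges (-3.06 ± 1.01, 0.0474).

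Of 21 regulators, 9 were higher and 5 lower in small intestine organoids, led by Cdx1, which had 0 reads with GFP and 78.4 and 173.6 CPM in small intestine organoids, and by Cdx2. NRF2 targets split evenly, with 2 of 17 higher and 2 lower, the lower ones being the aldehyde oxidase Aox1 (-6.70 ± 0.53, edgeR adjusted p = 0.00014) and the heme transporter Slc48a1 (-1.60 ± 0.19, 0.00106). Among the 13 deconjugating and other conjugating enzymes 4 were higher, including the carboxylesterase Ces2a (7.43 ± 1.74, 0.0137), and 3 were lower, including Ugt8a, the ceramide galactosyltransferase, at 4.48, 6.06 and 11.3 CPM with GFP and 0.186 and 0 CPM in small intestine organoids. Beside these counts stands the background of 27.1% of all genes called in this comparison.

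In the enhancer experiment no conjugating enzyme passed the test in edgeR, and nearly all fitted values lay below wild type. Cdx2 itself stood at 16.7, 26.8 and 58.5 CPM in wild-type libraries, at 18.4, 5.55 and 9.31 CPM in heterozygous ones and at 0.199, 1.36 and 0.585 CPM in homozygous ones. For homozygous against wild type, edgeR called 0 of 33 members (0% of all 12593 genes), DESeq2 called 0 (1.43% of all genes), and 5 members and 578 of all genes had an unadjusted p under 0.05. The libraries did not overlap for 4 members, all lower, against 8.90% of all genes. Of the 33 members 31 lay below 0, with a median log2 fold change of -0.45 against 0.000669 over all genes. The partner lists also lay mostly below 0, with 17 of 21 regulators and 13 of 17 NRF2 targets. Sulfate donor supply was the exception, with 3 of 7 genes below 0.

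For heterozygous against wild type, edgeR called 0 of 33 members (0% of all genes) and DESeq2 called 1 (2.60% of all genes), and 10 members and 1124 of all 12593 genes had an unadjusted p under 0.05. The libraries did not overlap for 9 members, all lower, against 14.9% of all genes, and 29 lay below 0, with a median of -0.63 against -0.00347. Except for sulfate donor supply, with 3 of 7 genes below 0, the partner lists again lay mostly below 0. Among them were 19 of 21 regulators and 8 of 9 export pumps. Both comparisons use the same 3 wild-type libraries. Between homozygous and heterozygous libraries edgeR called 0 members (0% of all genes), DESeq2 called 0 (0.00794%), 0 (and 33 of all genes) had an unadjusted p under 0.05, 0 did not overlap (1.95% of all genes), and 19 lay above and 14 below 0. The median of that comparison was 0.09.

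Wild-type library 3 stood apart from the others. It carried 100.8 CPM of the Y-linked gene Ddx3y, where the other 8 libraries of the experiment had at most 0.2268 CPM, and it had the highest Cdx2 and the highest level of Ugt1a7c, Ugt1a1, Ugt1a6a, Ugt2b34, Gsta1 and Gsta4. Ugt1a7c was measured at 0.809, 4.57 and 32.7 CPM in wild type, at 4.09, 0.512 and 0.568 CPM in heterozygous libraries and at 0.697, 1.17 and 0.702 CPM in homozygous ones. Its groups overlapped. The log2 fold change of Ugt1a7c in homozygous libraries was -3.86 ± 1.32 (edgeR adjusted p = 0.877), and -1.62 ± 1.06 without wild-type library 3. In heterozygous libraries it was -2.87 ± 1.25 (0.558), and -0.65 ± 1.04 without that library.

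Ugt1a1 was lower in every heterozygous and homozygous library than in every wild-type one: 1.89, 2.17 and 3.82 CPM in wild type, 0.838, 1.19 and 1.59 CPM in heterozygous and 0.697, 0.974 and 0.234 CPM in homozygous libraries. In homozygous libraries its log2 fold change was -2.003 ± 0.616 (edgeR adjusted p = 0.877; DESeq2 0.194), and -1.64 ± 0.68 without wild-type library 3. Ugt1a6a stood at 16.7, 28.2 and 35.1 CPM in wild type, 13.8, 9.90 and 12.8 CPM in heterozygous and 21.7, 14.2 and 9.37 CPM in homozygous libraries. The heterozygous libraries all lay below wild type (-1.13 ± 0.36, edgeR adjusted p = 0.457), and the homozygous ones overlapped it (-0.82 ± 0.35, 0.999).

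Sult1d1 was measured at 85.3, 158 and 152 CPM in wild type, at 48.9, 65.1 and 79.0 CPM in heterozygous and at 72.9, 80.4 and 28.4 CPM in homozygous libraries. All 6 deletion libraries lay below all 3 wild-type ones. The log2 fold change was -1.12 ± 0.39 in homozygous (edgeR adjusted p = 0.878) and -1.03 ± 0.39 in heterozygous libraries (0.498), and -1.01 and -0.92 without wild-type library 3. Sult1c2 stood at 127, 259.9 and 289 CPM in wild type, at 83.6, 70.7 and 85.2 CPM in heterozygous and at 207, 145 and 54.7 CPM in homozygous libraries. It was the member DESeq2 called in heterozygous libraries (log2 fold change -1.49, DESeq2 adjusted p = 0.033; edgeR -1.49 ± 0.45, 0.457). Homozygous libraries overlapped wild type for Sult1c2, and against heterozygous ones the difference was 0.77 ± 0.45 (edgeR adjusted p = 1).

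Ugt2b34 stood at 1271, 1679.9 and 2039 CPM in wild type, at 1235, 787 and 892 CPM in heterozygous and at 1497, 1211 and 961 CPM in homozygous libraries. Ugt2b35 stood at 170.2, 209 and 228 CPM in wild type, at 82.0, 106 and 140.3 CPM in heterozygous and at 163, 149.9 and 83.1 CPM in homozygous libraries. Heterozygous libraries lay below wild type for both genes (-0.78 ± 0.25 and -0.89 ± 0.28, edgeR adjusted p = 0.457 each). Sult1b1 stood at 69.2, 107 and 104 CPM in wild type, at 42.9, 50.9 and 50.9 CPM in heterozygous and at 81.4, 97.7 and 28.9 CPM in homozygous libraries. Gsta1 stood at 26.6, 31.4 and 144 CPM in wild type, and its log2 fold change in homozygous libraries, -1.54 ± 0.63, was -0.34 ± 0.36 without wild-type library 3. Its homozygous levels were 27.9, 26.4 and 14.6 CPM and its heterozygous levels 35.4, 18.8 and 18.5 CPM.

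**Figure D4:**
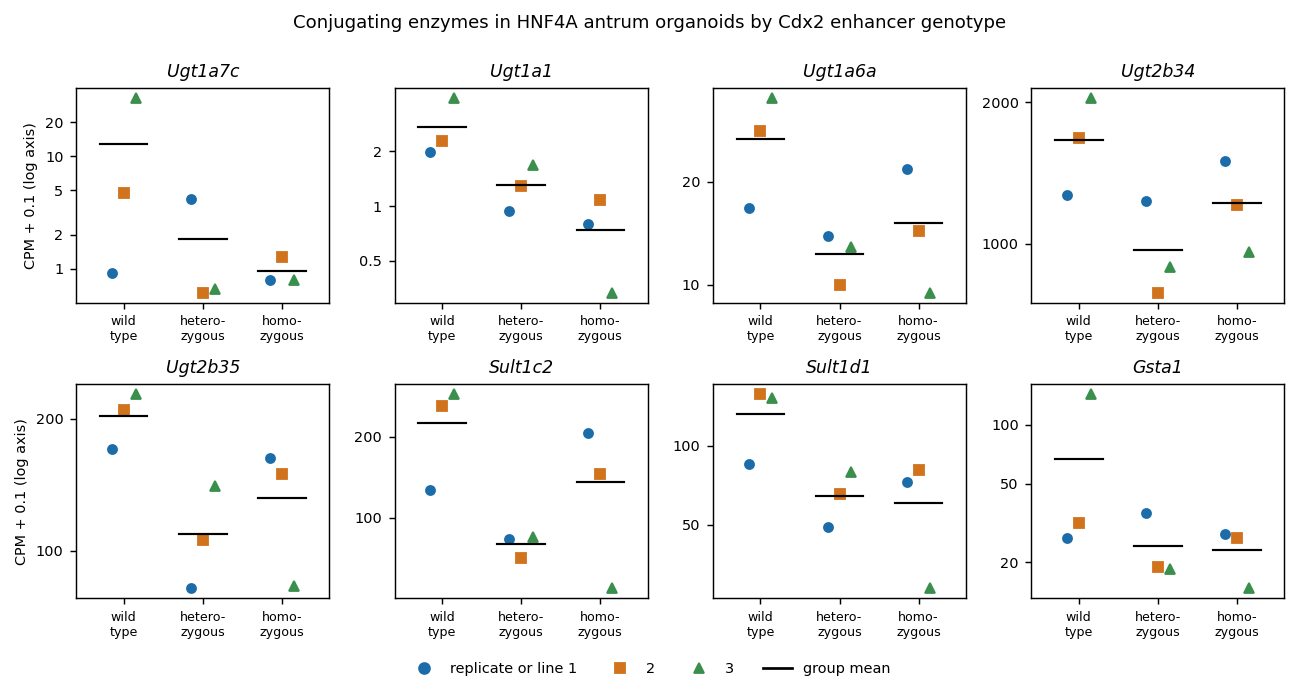
Level in CPM plus 0.1, on a log axis, of 8 members in the 9 enhancer libraries, by genotype; the marker shape gives the replicate number and the bar the group mean. Wild-type library 3 is highest for Ugt1a7c, at 32.7 CPM, and for Gsta1, at 144 CPM.

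Of the mu class, Gstm2 stood at 147, 175 and 160.1 CPM in wild type, at 123.3, 132 and 143 CPM in heterozygous and at 186, 152 and 97.4 CPM in homozygous libraries, and Gstm4 ran from 37.5 to 40.7 CPM in wild type and from 32.9 to 35.8 CPM in heterozygous libraries. For both genes the heterozygous libraries all lay below wild type; Gstm4 was named after its values were seen. Gstm5, lower in intestinal organoids of the first experiment, stood at 95.9, 95.7 and 50.6 CPM in wild type, at 66.0, 73.9 and 88.1 CPM in heterozygous and at 97.3, 88.1 and 48.3 CPM in homozygous libraries. Gstm3 stood at 251, 376 and 653 CPM in wild type, 238, 276 and 292 CPM in heterozygous and 327, 461 and 125 CPM in homozygous libraries. For Gstm5 and Gstm3 the genotypes overlapped. Gstm6 stood at 4.23, 14.1 and 10.4 CPM in wild type and ran from 4.10 to 7.02 CPM in heterozygous and from 3.12 to 6.44 CPM in homozygous libraries, again with overlap.

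Levels of Wnt3a and of part of the fibroblast markers also differed by genotype, and by library within the deletion genotypes. Wnt3a stood at 0 to 4.327 CPM in wild type, at 175.4, 1809 and 3099 CPM in heterozygous and at 95.1, 196 and 2053 CPM in homozygous libraries. Rspo3 and Nog were highest in the same libraries as Wnt3a, heterozygous 2 and 3 and homozygous 3, at 53.95 CPM or more. Summed CPM of 12 fibroblast markers ran from 8.145 to 11.91 in wild type, from 88.66 to 1158 in heterozygous and from 39.81 to 928.5 in homozygous libraries, with Lum at 0 reads throughout and Thy1 at 0 reads in wild type and homozygous libraries. Tagln ran from 4.836 to 5.174 CPM in wild type and from 3.973 to 4.402 CPM in heterozygous libraries. Dcn and Acta2 had at most 0.6016 CPM in any library of the experiment. Summed CPM of 10 enterocyte markers ran from 519.4 to 832.2 in wild type, from 371.9 to 504.3 in heterozygous and from 325.2 to 557.2 in homozygous libraries. Most of each sum was Vil1, which ran from 302.3 to 542.4 CPM over these libraries. Without the 3 libraries richest in Wnt3a, the log2 fold change for homozygous against wild type was -1.62 ± 0.60 for Ugt1a1 and -0.77 ± 0.28 for Sult1d1. For heterozygous against wild type, with 1 heterozygous library left, it was -1.43 ± 0.51 for Sult1c2, -1.31 ± 0.22 for Ugt2b35 and -0.43 ± 0.31 for Ugt2b34. These last SE rest on the spread of the other groups, since the lone heterozygous library is assumed to vary like them. The part of the wild-type library with Ddx3y reads and of the enterocyte share in these differences was not tested.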

How the data were processed

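Organoid RNA was sequenced as poly-A libraries in 150 bp read pairs, per the labels' protocols. The authors deposited raw count values, 1 per gene symbol in each library; STAR and build mm10 are named in the submitters' processing notes, with Bowtie2, Cell Ranger and hg19 also named for the lines without a role. The gene models, the counting tool and its strand rule were not given in the sources used here. A source field of the lentiviral lines names small intestine organoids, while titles and the tissue tag say gastric; the latter were followed. The titles number the replicates of the first experiment as lines and those of the second as replicates, and the labels do not say which animals or cultures they came from, so p-values measure only the spread between libraries, which may be technical.

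Each experiment was fitted once over all its libraries and genes with edgeR 4.0.16 in R 4.3.3 (TMM, robust quasi-likelihood F test, two-sided) after filterByExpr (minimum count 10, minimum total 15), leaving 12720 genes in the lines and 12593 in the enhancer experiment. A gene was called where its p, adjusted by Benjamini-Hochberg over all tested genes, was under 0.05. SE is the log2 fold change over the square root of F. The fit was also run on simulated data with known changes. These were drawn without line effects and placed only in genes above a low level. The simulation therefore does not cover lines that deviate together or genes with few reads. DESeq2 1.42.0, RLE scaling, no filter, a replicate block and leaving out each library were alternatives. Same-numbered gastric libraries correlated in their deviations from group means from 0.336 to 0.751 over 9 pairs, so line number pairs them. Pairs with small intestine ranged from -0.0881 to 0.118 over 6 pairs, pairs with enhancer wild type from -0.29 to 0.244 over 6 and pairs of heterozygous with homozygous from 0.188 to 0.53 over 3; the block called 0 members there. In the lines' block, small intestine libraries were set at the mean of the 3 line numbers. The spread between gastric lines thus left the error of comparisons with small intestine, which are not paired, and their blocked p-values may be too small. A count of 3 equals 0.2561 to 0.4733 CPM in a library; reads carry no molecular identifiers, so counting intervals cover counting error only.

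Genes named are all members edgeR called, the 3 with the smallest p where fewer than 3 were called, and the 8 with the highest mean CPM per experiment; of the partner lists, at most 2 called genes per list against GFP. Members and lists were chosen with earlier results of these data known. CPM is not divided by transcript length, so levels are not compared between genes. The chromatin samples of the series were not analysed here.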

Additional observations from a re-analysis of the deposited data

How the results depend on the processing

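The 75 fold changes followed here were those of members with an unadjusted p under 0.05 or a call in the blocked fit or DESeq2. Partner genes were not followed. Over 1107 alternative values, 0 changed sign, 1001 stayed on the same side of the threshold, 37 fell below it and 69 passed it. Stable signs were likely in advance for members picked in this way. Outside this set Gsto2 with CDX2 against GFP had a log2 fold change of -1.13, and of 0.08 with the block. DESeq2 called 3, 4 and 1 members for CDX2 against GFP, HNF4A against GFP and CDX2 against HNF4A, and 11, 5 and 6 for small intestine against GFP, CDX2 and HNF4A; in heterozygous against wild type it called 1. With the replicate block these counts in the lines were 4, 2, 1, 13, 9 and 9, and 0 in the 3 enhancer comparisons. Leaving out 1 library at a time gave 0 to 1 for CDX2 against GFP, 0 to 1 for HNF4A against GFP, 3 to 7, 0 to 3 and 0 to 4 for small intestine against GFP, CDX2 and HNF4A, and 0 in the other comparisons; the cause was not tested. RLE scaling and no filter left every count within 1.5 times. Gstm5 in small intestine against HNF4A missed the threshold with RLE scaling (adjusted p = 0.0502) and with no filter (0.0591). Leaving out the Wnt3a-rich libraries was chosen after seeing the data. The values rest on 2 or 3 libraries a group, and those of Ugt2b5 and Ugt2b36 also on few reads. Few reads also lie behind Ugt1a7c and Ugt1a1 with GFP, at 15 and 12 over the group, and behind Ugt1a1 in homozygous libraries, at 19.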
